A study of Mus musculus with 12 samples.

Results

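The transcripts described here encode 9 surface antigens that define the LSK gate of mouse bone marrow, or that divide LSK cells into stem cells and multipotent progenitors. They are Kit, Ly6a, Cd34, Slamf1, Cd48, Cd27, Eng, Cd24a and Ptprc. They were chosen by symbol and not by a cut on measured values, though with earlier results of these data known. All come from the 39017 genes of the deposited count table, and 9 of 9 passed the filter on low counts that 16024 genes passed. RNA of sorted LSK cells (lineage negative, Sca1 positive, cKit positive) was sequenced in 12 libraries, 3 for each of 4 labelled groups. All mice had a mixed C57BL/6J and Sv/129 background, and all labels name a poly(I:C) injection of 2 ug per g of body weight. Ages are not labelled, nor whether a library is 1 mouse or a pool, so each p-value reflects the spread among these libraries and no more, which may be technical at least in part. NOTCHWT_TCFWT is the labelled wild type with a control poly(I:C) injection. NICD_TCFWT carries R26 N1IC lox/+ with Mx1Cre, a transgene that releases the intracellular part of Notch1 after recombination. NOTCHWT_TCFKO carries Tcf7 lox/lox with Mx1Cre, and NICD_TCFKO carries both floxed loci with Mx1Cre. Mx1Cre is switched on by interferon in many cell types, so recombination is not restricted to LSK cells. Both NICD groups were also sorted as CD45.2+ eGFP+, so that gate and the labelled transgene cannot be told apart.

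The LSK gate takes its name from 3 properties: no lineage antigens, Sca-1 and c-Kit. Within it, long-term stem cells are classically CD150 positive and negative for CD48, CD34 and CD27 or low for them, while multipotent progenitors gain CD34, CD48 and CD27 as they lose self-renewal. All measurements here are transcript levels in the whole sorted pool. A changed share of a subset and a changed amount of RNA per cell cannot be told apart in them, and no value is an antigen level on the cell surface.

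The targeted genes did not follow the labels of the NICD groups. Tcf7 stood at 297 to 896 CPM (counts-per-million of the library total, scaled with the trimmed mean of M values) in NICD_TCFKO, against 10.5 to 19.6 in NOTCHWT_TCFWT, 4.68 to 6.76 in NICD_TCFWT and 0.267 to 2.76 in NOTCHWT_TCFKO. Notch1 was at 591 to 886 CPM in NICD_TCFKO, 541 to 621 in NOTCHWT_TCFWT and 104 to 197 in NOTCHWT_TCFKO. In NICD_TCFWT it was at 157 to 195, below every NOTCHWT_TCFWT library. Both are counts over whole genes and do not test recombination. The Tcf7 count includes parts outside a floxed exon. The Notch1 count does not separate transcripts of the gene itself from any of the R26 transgene. All groups below therefore mean the libraries so labelled. Library totals ran from 30453271 to 43790674 counts, of which the 9 transcripts took between 0.279% and 0.367%. Library 2 of NOTCHWT_TCFKO stood apart with the highest summed neutrophil (9807 CPM) and erythroid (1269 CPM) markers, and library 1 of that group held Xist together with transcripts of the Y chromosome. Xist was high in 3 of 3 libraries of NOTCHWT_TCFWT, 1 of NICD_TCFWT, 2 of NICD_TCFKO and 2 of NOTCHWT_TCFKO, so the sexes are unevenly spread over the groups. Except in NOTCHWT_TCFWT, each group held libraries with and without high Xist, which cannot all come from the same mouse. Markers of macrophages summed to between 435 and 663 CPM in NOTCHWT_TCFKO against 57.8 to 158 in the other 9 libraries. Against NOTCHWT_TCFWT, 9 of the 10 rose in NOTCHWT_TCFKO (10.8% of all genes did), Adgre1 and C1qa among them.

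Averaged over 12 libraries and divided by merged exon length, Cd48 stood at 170.0 CPM per kb, Cd24a at 163, Cd34 at 117, Kit at 85.0, Cd27 at 84.9, Ly6a at 69.6, Eng at 39.0, Ptprc at 26.8 and Slamf1 at 1.74. Slamf1, encoding CD150, was thus the scarcest per unit of length. Divided by the longest transcript instead, Cd34 moved to the top with 278 CPM per kb and Cd48 to the third place with 170.5, while Slamf1 stayed last at 2.43.

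Kit (ENSMUSG00000005672, mm10 chr5:75574916-75656722, plus strand) encodes the receptor for stem cell factor and supplies the K of the gate. Kit measured 764, 784 and 818 CPM in NOTCHWT_TCFWT, 774, 683 and 977 in NOTCHWT_TCFKO, 762, 846 and 751 in NICD_TCFWT, and 708, 609.5 and 615 in NICD_TCFKO. The NICD_TCFKO libraries lay below every library of NOTCHWT_TCFWT and NICD_TCFWT and overlapped NOTCHWT_TCFKO only between 683 and 708 CPM. None of the 6 pairwise comparisons of Kit passed the threshold of adjusted p under 0.05 in edgeR's quasi-likelihood test with Benjamini-Hochberg adjustment over 16024 genes. At an unadjusted p under 0.05, 3 of the 6 passed, each with NICD_TCFKO lower, while DESeq2 called 1 and limma-voom 0. The smallest adjusted p was 0.0756, for NICD_TCFKO against NOTCHWT_TCFKO, with a log2 difference of -0.33 ± 0.12 (SE). In NICD_TCFWT against NOTCHWT_TCFWT the log2 difference was 0.00 with a 95% interval of -0.27 to 0.26.

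Ly6a (ENSMUSG00000075602, mm10 chr15:74994877-74998031, minus strand) encodes Sca-1, the S of the gate, a GPI-anchored protein whose gene is known to respond to interferon. Its family has close copies, so reads shared among them are uncertain. Ly6a measured 120.3, 101 and 148 CPM in NOTCHWT_TCFWT and 87.9, 79.4 and 51.8 in NICD_TCFWT. In NICD_TCFKO the values were 111, 119.5 and 74.7 CPM, and in NOTCHWT_TCFKO they were 33.0, 33.6 and 45.9. All 3 NOTCHWT_TCFKO libraries were below every other library of the study. Ly6a fell in NOTCHWT_TCFKO against NOTCHWT_TCFWT by 1.71 ± 0.25 on the log2 scale (adjusted p = 0.00104) and was 1.44 ± 0.25 higher in NICD_TCFKO than in NOTCHWT_TCFKO (adjusted p = 0.00373). The lower value in NICD_TCFWT than in NOTCHWT_TCFWT, -0.75 ± 0.24, lay just outside the threshold at adjusted p = 0.0511, and 8 of 21 alternative settings brought it inside. Although all cells were sorted on the Sca-1 protein, the highest library had 4.48 times the transcript of the lowest.

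**Figure D1:**
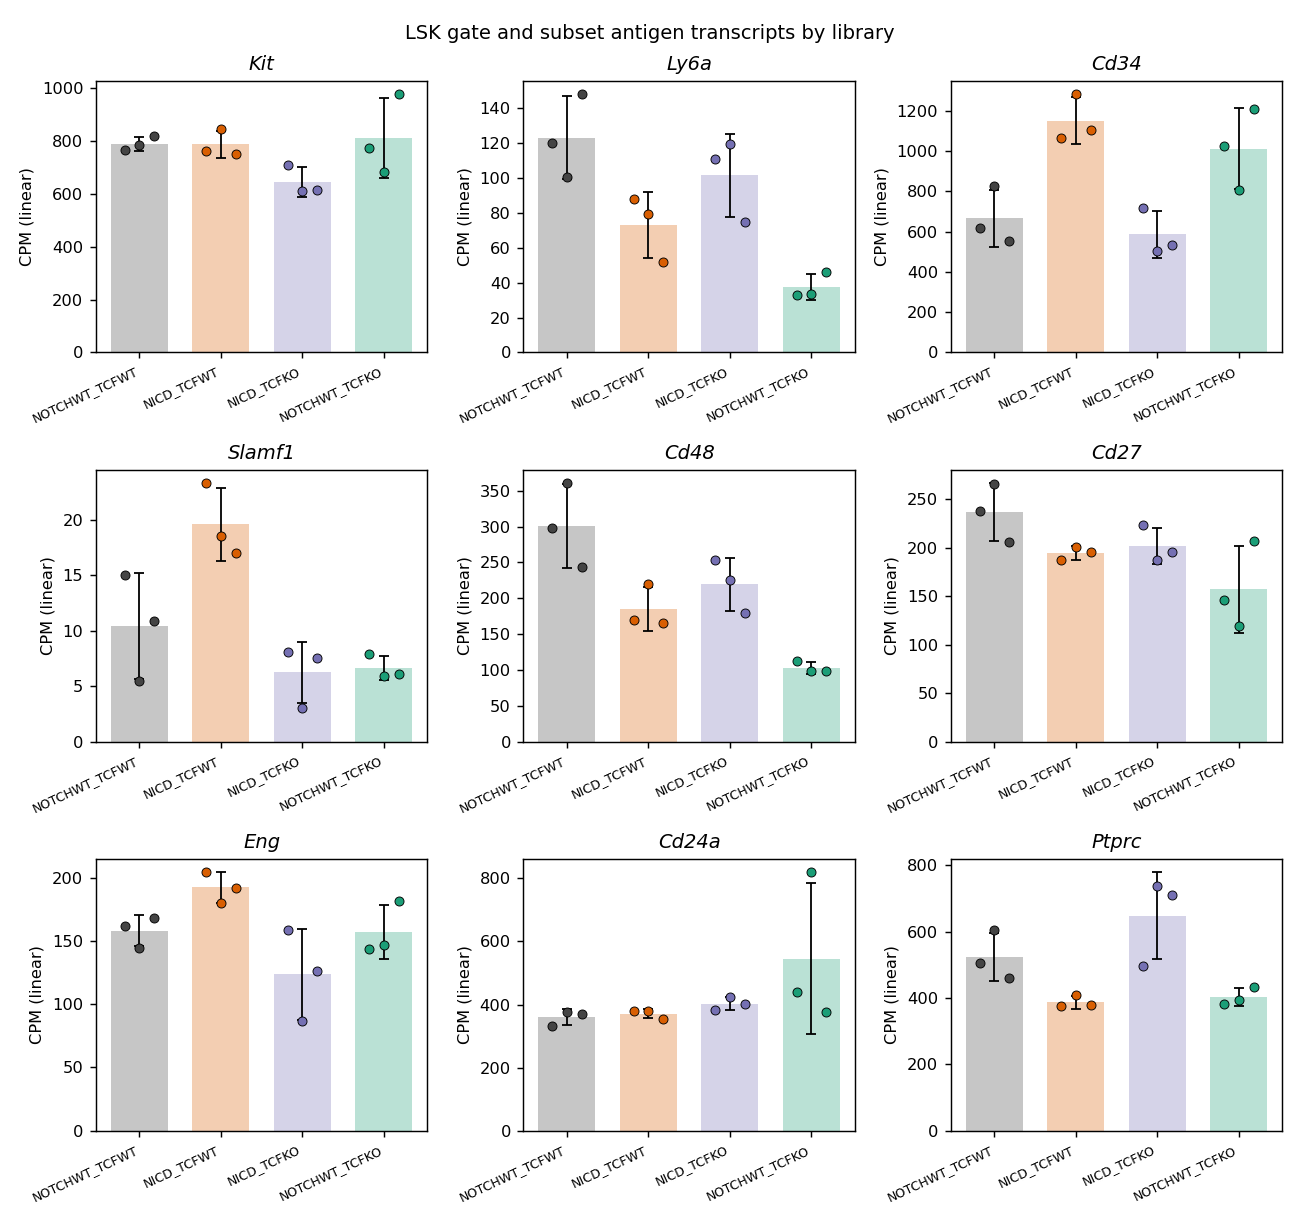
CPM (linear axes from 0) of the 9 transcripts in each library, by labelled group; bars are means, error bars SD of 3 libraries, points single libraries. Ly6a and Cd48 are lowest in NOTCHWT_TCFKO, Cd34 is highest in NICD_TCFWT, Ptprc is highest in NICD_TCFKO, and 1 NOTCHWT_TCFKO library carries the Cd24a maximum of 819.

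Interferon-stimulated genes moved alongside Ly6a in NOTCHWT_TCFKO against NOTCHWT_TCFWT. Of a list of 20 such genes, 11 fell (10.5% of all genes did) and 1 rose (10.8%) there. Their median log2 difference was -0.54 against 0.00 over all genes tested. In NICD_TCFWT against NOTCHWT_TCFWT 5 fell (9.75%) and 3 rose (10.6%). In NICD_TCFKO against NICD_TCFWT only Ly6e was called, and it was higher. Without Ly6e, the sum of the other 19 was 1266 to 2062 CPM in NOTCHWT_TCFWT, 828 to 1163 in NICD_TCFWT, 1009 to 1106 in NICD_TCFKO and 737 to 902 in NOTCHWT_TCFKO. Library 3 of NOTCHWT_TCFWT was highest in both the sum and Ly6a, and libraries 1 and 2 of NOTCHWT_TCFKO were the 2 lowest in both. Of 10236 genes compared over the 12 libraries, those most like Ly6a were the RNA helicase gene Ddx39b (Pearson's r = 0.977 on log2 CPM), Usp18 (0.963), which restrains interferon signalling and is also on the list, and the interferon-induced gene Ifi35 (0.960). The part of the interferon response in the Ly6a difference was not tested.

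Among the other members of the family, 6 of 12 listed genes including Ly6a could be tested. Ly6e, encoding another GPI-anchored family member, stood at 1391 ± 231 CPM in NOTCHWT_TCFWT, 783 ± 52.7 in NICD_TCFWT, 1507 ± 303 in NICD_TCFKO and 778 ± 76.0 in NOTCHWT_TCFKO (SD, n = 3). Ly6e fell in NICD_TCFWT against NOTCHWT_TCFWT and in NOTCHWT_TCFKO against NOTCHWT_TCFWT. In all, 3 family genes fell in the former (9.75% of all genes did) and 2 in the latter (10.5%), where 1 gene, Ly6c2, rose (10.8%). In NICD_TCFKO against NICD_TCFWT, 3 rose (7.25% of all genes did), Ly6e and Ly6d among them, and 0 fell (5.15%).

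Cd34 (ENSMUSG00000016494, mm10 chr1:194938819-194961279, plus strand) encodes a sialomucin that separates CD34-negative stem cells from CD34-positive progenitors in the mouse. Cd48 (ENSMUSG00000015355, chr1:171682009-171705258, plus strand) encodes a SLAM family ligand of CD244 that is gained by progenitors. Slamf1 (ENSMUSG00000015316, chr1:171767127-171801184, plus strand) encodes CD150, the stem cell marker of the same family, and lies next to Cd48. The windows below are the 250 bases upstream of the RefSeq start of each gene (GRCm38.p6, 5′ to 3′ on the gene's plus strand). They are shown because Cd48 and Slamf1 are neighbours and because Cd34 and Cd48 moved in opposite directions between the groups. Capitals mark a match to 1 of 5 motifs searched on both strands.
Cd34: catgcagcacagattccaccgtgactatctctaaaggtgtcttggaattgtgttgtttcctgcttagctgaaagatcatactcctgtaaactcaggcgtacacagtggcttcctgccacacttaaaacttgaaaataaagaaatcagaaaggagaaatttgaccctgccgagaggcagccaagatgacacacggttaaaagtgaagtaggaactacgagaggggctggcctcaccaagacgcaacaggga
Cd48: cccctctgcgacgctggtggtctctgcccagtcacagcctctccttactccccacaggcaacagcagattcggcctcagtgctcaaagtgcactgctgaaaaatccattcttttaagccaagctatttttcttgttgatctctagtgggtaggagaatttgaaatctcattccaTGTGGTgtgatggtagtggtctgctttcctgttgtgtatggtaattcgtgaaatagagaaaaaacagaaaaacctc
Slamf1: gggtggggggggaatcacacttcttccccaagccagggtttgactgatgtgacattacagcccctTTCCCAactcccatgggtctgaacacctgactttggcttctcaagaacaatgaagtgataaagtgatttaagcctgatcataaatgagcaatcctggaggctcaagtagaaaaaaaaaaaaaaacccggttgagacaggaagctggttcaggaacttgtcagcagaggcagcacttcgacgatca
The windows are chr1:194938571-194938820 for Cd34, chr1:171681742-171681991 for Cd48 and chr1:171766882-171767131 for Slamf1. The RBPJ motif, bound by the DNA-binding partner of Notch, was searched as TGGGAA. The motif of the TCF/LEF factors, which include the product of Tcf7, was searched as CTTTGAT. For the GATA factors of blood cells the letters were AGATAA. The RUNX factors were represented by the letters TGTGGT, and the interferon response element was searched by its consensus. Of 32851 mouse promoter windows of the same length, 21.6% held the RBPJ letters, 3.2% the TCF/LEF, 10% the GATA, 14% the RUNX and 3% the interferon letters. The Cd48 window held 1 RUNX match, the Slamf1 window 1 RBPJ match on the opposite strand (printed as TTCCCA), and the Cd34 window 0 matches to these letters. Windows were found for 7 of the 9 genes, 9 windows in all. Among the rest, 1 of the 2 Ptprc windows held a GATA match and the windows of Kit, Cd27 and Eng held 0. These matches describe letters only.

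Cd34 was called in 4 of 6 pairwise comparisons, as was Cd48. The 3 Cd34 values were 617, 824 and 555 CPM in NOTCHWT_TCFWT and 1062, 1282 and 1106 in NICD_TCFWT. The values were 717, 505 and 534 CPM in NICD_TCFKO and 1023, 804 and 1206 in NOTCHWT_TCFKO. Every NICD_TCFWT library lay above every library of NOTCHWT_TCFWT and NICD_TCFKO, while library 2 of NOTCHWT_TCFKO (804) overlapped library 2 of NOTCHWT_TCFWT (824). Cd34 rose in NICD_TCFWT against NOTCHWT_TCFWT by 0.79 ± 0.19 on the log2 scale (1.73-fold, adjusted p = 0.0154). Cd34 in NICD_TCFKO differed from NICD_TCFWT by -0.97 ± 0.19 (adjusted p = 0.00959) and from NOTCHWT_TCFKO by -0.79 ± 0.19 (adjusted p = 0.0180). In NOTCHWT_TCFKO against NOTCHWT_TCFWT the log2 difference of 0.60 ± 0.19 passed at adjusted p = 0.0453. That last call was lost without any 1 of 8 libraries (replicates 1 and 3 of NOTCHWT_TCFWT, all 3 of NICD_TCFWT, replicate 3 of NICD_TCFKO and replicates 1 and 3 of NOTCHWT_TCFKO), at adjusted p of 0.0536 to 0.135, and under 4 of 9 other settings. The call in NICD_TCFWT was lost without replicate 1 or 3 of NOTCHWT_TCFWT or replicate 2 of NICD_TCFWT (adjusted p of 0.0563 to 0.0587), and that in NICD_TCFKO against NOTCHWT_TCFKO without replicate 2 or 3 of NICD_TCFKO or replicate 1 of NOTCHWT_TCFKO (0.0540 to 0.0676). Of 8 other tested genes of the CD34 and sialomucin list, 2 rose (Prom1 and Emcn) and 2 fell (Podxl and Podxl2) in NOTCHWT_TCFKO against NOTCHWT_TCFWT. Of all genes 10.8% rose and 10.5% fell there. In NICD_TCFWT against NOTCHWT_TCFWT 1 rose (Emcn) and 0 fell, where 10.6% and 9.75% of all genes did. An antisense gene, Gm16897, shares 148 exon bases with Cd34, and the strand setting of the counting is not given in the sources used here.

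Cd48 ran the other way. It measured 298, 361 and 244 CPM in NOTCHWT_TCFWT, 113, 98.0 and 98.5 in NOTCHWT_TCFKO, 170.0, 220.5 and 165 in NICD_TCFWT, and 253, 226 and 179 in NICD_TCFKO. The NOTCHWT_TCFKO libraries were the lowest of all 12, and those of NICD_TCFWT were all below those of NOTCHWT_TCFWT. Cd48 fell by 1.54 ± 0.17 on the log2 scale in NOTCHWT_TCFKO against NOTCHWT_TCFWT (2.92-fold lower, adjusted p = 0.000179), the smallest adjusted p among the 9 transcripts in the 6 pairwise comparisons. Cd48 fell by 0.70 ± 0.17 in NICD_TCFWT against NOTCHWT_TCFWT (adjusted p = 0.0149) and was 1.09 ± 0.17 higher in NICD_TCFKO than in NOTCHWT_TCFKO (adjusted p = 0.00201). It was the 1 transcript called in NOTCHWT_TCFKO against NICD_TCFWT, where 2.87% of all genes were called, at -0.84 ± 0.17 and adjusted p = 0.0249. The call in NICD_TCFWT was lost without replicate 2 of NOTCHWT_TCFWT or replicate 1 or 3 of NICD_TCFWT (adjusted p of 0.0539 to 0.0685). The call in NOTCHWT_TCFKO against NICD_TCFWT was lost without replicate 1 of NOTCHWT_TCFWT, replicate 1 or 2 of NICD_TCFWT or replicate 1 or 2 of NOTCHWT_TCFKO (0.0531 to 0.110).

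Within single libraries the ratio of Cd34 to Cd48 CPM was 2.07, 2.28 and 2.28 in NOTCHWT_TCFWT, 9.05, 8.20 and 12.2 in NOTCHWT_TCFKO, 6.25, 5.82 and 6.68 in NICD_TCFWT, and 2.83, 2.24 and 2.98 in NICD_TCFKO. The ratio needs no scaling between libraries, and the ranges of NICD_TCFWT and NOTCHWT_TCFKO overlapped neither each other nor the other groups. In NICD_TCFWT and NOTCHWT_TCFKO, each against NOTCHWT_TCFWT, Cd34 was higher and Cd48 lower, 2 antigens that progenitors are both known to carry. The ratio was formed after both transcripts had been examined and is given without a test.

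**Figure D2:**
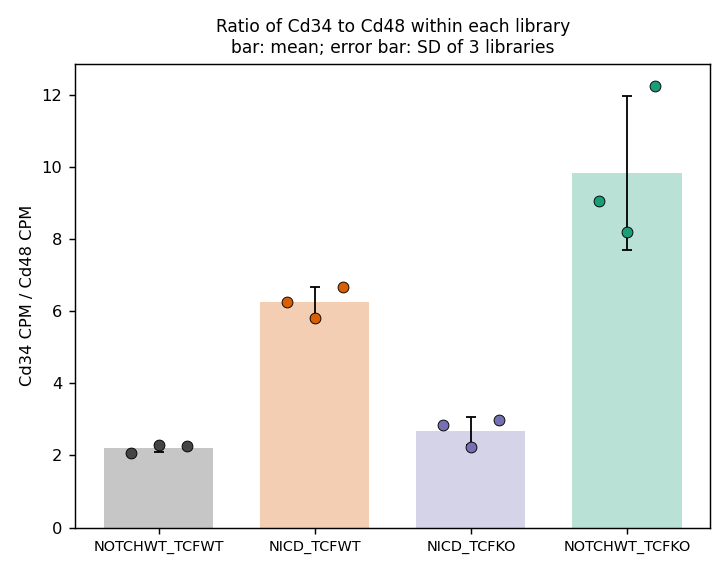
Ratio of Cd34 to Cd48 CPM (linear axis from 0) in each library; bars are means, error bars SD of 3 libraries, points single libraries. NOTCHWT_TCFWT and NICD_TCFKO lie between 2.07 and 2.98, NICD_TCFWT between 5.82 and 6.68, and NOTCHWT_TCFKO between 8.20 and 12.2.

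Slamf1 rested on few counts, 126 to 858 per library. It measured 15.0, 5.49 and 10.8 CPM in NOTCHWT_TCFWT, 7.90, 5.94 and 6.13 in NOTCHWT_TCFKO, 23.3, 18.5 and 17.0 in NICD_TCFWT, and 8.10, 3.05 and 7.57 in NICD_TCFKO. The 3 NICD_TCFWT libraries were the highest of the 12. Slamf1 fell in NICD_TCFKO against NICD_TCFWT by 1.65 ± 0.40 on the log2 scale (adjusted p = 0.0240), a call lost without any 1 replicate of NICD_TCFWT or replicate 2 or 3 of NICD_TCFKO (adjusted p of 0.0515 to 0.0805). The difference between NOTCHWT_TCFKO and NICD_TCFWT was as large, -1.56 ± 0.40, and did not pass (adjusted p = 0.0642), although 6 of 21 alternative settings called it. In NICD_TCFWT against NOTCHWT_TCFWT, Slamf1 and Cd48 differed in sign, at 0.91 ± 0.39 (adjusted p = 0.130) for Slamf1. The number of Cd48 counts per Slamf1 count was 7.30 to 11.9 in NICD_TCFWT, 14.3 to 16.5 in NOTCHWT_TCFKO, 19.9 to 65.8 in NOTCHWT_TCFWT and 23.6 to 74.0 in NICD_TCFKO.

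Other SLAM genes split in the same comparisons. Of the 8 tested besides Slamf1 and Cd48, 1 rose and 1 fell in NICD_TCFWT against NOTCHWT_TCFWT (10.6% and 9.75% of all genes). In NOTCHWT_TCFKO against NOTCHWT_TCFWT 2 rose and 1 fell (10.8% and 10.5%). In NICD_TCFKO against NICD_TCFWT 3 rose and 2 fell (7.25% and 5.15%). Cd244a, encoding the receptor for CD48, stood at 101 ± 10.7 CPM in NOTCHWT_TCFWT, 53.4 ± 10.4 in NICD_TCFWT, 93.7 ± 16.4 in NICD_TCFKO and 39.5 ± 11.8 in NOTCHWT_TCFKO (SD, n = 3), so receptor and ligand transcripts were ordered alike over the groups. Ly9, encoding CD229, stood at 15.5 ± 2.84, 55.6 ± 6.55, 28.5 ± 1.98 and 50.3 ± 4.52 CPM in the same order. Ly9 rose by 1.85 ± 0.14 on the log2 scale in NICD_TCFWT against NOTCHWT_TCFWT (adjusted p = 1.93e-05) and by 1.70 ± 0.14 in NOTCHWT_TCFKO against NOTCHWT_TCFWT (adjusted p = 2.59e-05).

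Further antigens used to divide the LSK pool showed that Cd34 was not alone in rising. Of 20 such genes besides the 9, 8 rose and 3 fell in NICD_TCFWT against NOTCHWT_TCFWT (10.6% and 9.75% of all genes). In NOTCHWT_TCFKO against NOTCHWT_TCFWT 9 rose and 3 fell (10.8% and 10.5%). The median log2 differences were 0.50 and 0.43. Flt3, the receptor of lymphoid-primed progenitors, stood at 54.9 ± 16.8 CPM in NOTCHWT_TCFWT, 548 ± 28.8 in NICD_TCFWT, 119 ± 17.2 in NICD_TCFKO and 445 ± 192 in NOTCHWT_TCFKO (SD, n = 3), and rose in both comparisons. Esam, a junction protein of stem cells, fell in both, from 107 ± 23.9 CPM in NOTCHWT_TCFWT to 45.1 ± 8.32 in NICD_TCFWT and 28.3 ± 7.98 in NOTCHWT_TCFKO. Procr, encoding the stem cell antigen EPCR, ranged between group means of 25.2 and 36.1 CPM. Vcam1, which rose in NOTCHWT_TCFKO, is also on the macrophage list, and the part of those cells was not tested.

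Cd27 (ENSMUSG00000030336, mm10 chr6:125232622-125237010, minus strand) encodes a TNF receptor family co-stimulatory receptor found on progenitors and on lymphocytes. It measured 238, 266 and 206 CPM in NOTCHWT_TCFWT, 146, 119 and 206 in NOTCHWT_TCFKO, 187, 201 and 195 in NICD_TCFWT, and 223, 188 and 195 in NICD_TCFKO. Library 3 of NOTCHWT_TCFKO reached the lowest NOTCHWT_TCFWT library, and the other 2 were the lowest of the 12. Cd27 fell by 0.59 ± 0.17 on the log2 scale in NOTCHWT_TCFKO against NOTCHWT_TCFWT (adjusted p = 0.0317), and the other 5 pairwise comparisons did not pass. The call was lost without replicate 1 or 2 of NOTCHWT_TCFWT or replicate 1 or 2 of NOTCHWT_TCFKO (adjusted p of 0.0674 to 0.109), and with the fit restricted to the groups compared or with a replicate block. The gene of its ligand, Cd70, was at 0 in every library of 3 groups and at no more than 0.0577 CPM in the fourth. Of 10 other tested genes of the CD27 and TNF receptor list, 2 rose (Tnfrsf1a and Tnfrsf1b, receptors of TNF) and 2 fell (Traf2 and Traf3, adaptors of such receptors) in NOTCHWT_TCFKO against NOTCHWT_TCFWT. Of all genes 10.8% rose and 10.5% fell there.

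Eng (ENSMUSG00000026814, mm10 chr2:32646595-32682669, plus strand) encodes endoglin, CD105, a co-receptor of the TGF-beta family. It measured 162, 144 and 168 CPM in NOTCHWT_TCFWT, 143, 146 and 181 in NOTCHWT_TCFKO, 204, 180.3 and 192 in NICD_TCFWT, and 158, 86.7 and 126 in NICD_TCFKO. All NICD_TCFWT libraries were above all NICD_TCFKO libraries. Eng fell by 0.64 ± 0.18 on the log2 scale in NICD_TCFKO against NICD_TCFWT (adjusted p = 0.0440). That call was lost without any 1 of 9 libraries (all 3 replicates of NOTCHWT_TCFWT, all 3 of NICD_TCFWT, replicates 2 and 3 of NICD_TCFKO and replicate 1 of NOTCHWT_TCFKO), at adjusted p of 0.0520 to 0.125, and under 2 of 10 other settings. Of 19 other tested genes of the TGF-beta list, 3 rose (7.25% of all genes did) and 1 fell (5.15%) in this comparison. Those that rose were Tgfbr1, Tgfbr2 and Smad7, an inhibitor of the pathway, whose level was 16.3 ± 1.51 CPM in NICD_TCFWT and 44.3 ± 1.29 in NICD_TCFKO (SD, n = 3). Megakaryocyte markers moved in the same direction as Slamf1 and Eng in this comparison, both of which megakaryocyte progenitors are known to carry. In NICD_TCFKO against NICD_TCFWT 5 of 7 tested markers fell (5.15% of all genes did), Pf4 and Vwf among them, and 0 rose. In NOTCHWT_TCFKO against NOTCHWT_TCFWT 3 rose (10.8%), Pf4 and Vwf among them, and 0 fell, while neither Slamf1 nor Eng was called. The sum of the 8 listed was 92.8 to 150 CPM in NICD_TCFKO, 208 to 322 in NICD_TCFWT, 164 to 205 in NOTCHWT_TCFKO and 196 to 219 in NOTCHWT_TCFWT. In NOTCHWT_TCFWT Itga2b alone averaged 191 CPM, most of that sum. The part of these markers in Slamf1 and Eng was not tested. Fpgs shares 61 exon bases with Eng on the other strand.

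Cd24a (ENSMUSG00000047139, mm10 chr10:43578284-43584265, plus strand) encodes a small GPI-anchored mucin present on early erythroid cells, neutrophils, B cell precursors and thymocytes. Values were 332, 378 and 371 CPM in NOTCHWT_TCFWT, 441, 819 and 376 in NOTCHWT_TCFKO, 379.9, 379 and 355 in NICD_TCFWT, and 382, 424 and 401 in NICD_TCFKO. Except for 819 and 441, all values lay between 332 and 424. None of its 6 pairwise comparisons was called by edgeR, against 2 at an unadjusted p under 0.05, 1 by DESeq2 and 0 by limma-voom. The log2 difference between NOTCHWT_TCFKO and NOTCHWT_TCFWT was 0.60 ± 0.23 (adjusted p = 0.0888). Without library 2 of NOTCHWT_TCFKO it was 0.17 (adjusted p = 0.263), and without library 3 it was 0.84 and passed (0.0146). Library 2 of NOTCHWT_TCFKO, with 819 CPM of Cd24a, was also the library with the highest neutrophil and erythroid sums. In NICD_TCFWT and in NOTCHWT_TCFKO, each against NOTCHWT_TCFWT, 4 of 9 tested neutrophil markers rose (Elane, Mpo, Prtn3 and Ctsg) and 0 fell. Of all genes 10.6% and 10.8% rose in these comparisons. Mpo alone averaged 2696 CPM in NICD_TCFWT and 3790 in NOTCHWT_TCFKO, whereas S100a8 averaged 0.989 in NICD_TCFWT and 0.897 in NOTCHWT_TCFWT. Summed neutrophil markers were 40.1 to 62.3 CPM in NOTCHWT_TCFWT, 1442 to 5836 in NICD_TCFWT, 308 to 1236 in NICD_TCFKO and 1283 to 9807 in NOTCHWT_TCFKO. Library 1 of NOTCHWT_TCFKO, with the next highest values of both, had 6927 CPM of these markers and 441 of Cd24a, while library 3 of NICD_TCFWT had 5836 CPM of the markers with 355 of Cd24a. Their part in the Cd24a level was not tested.

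**Figure D3:**
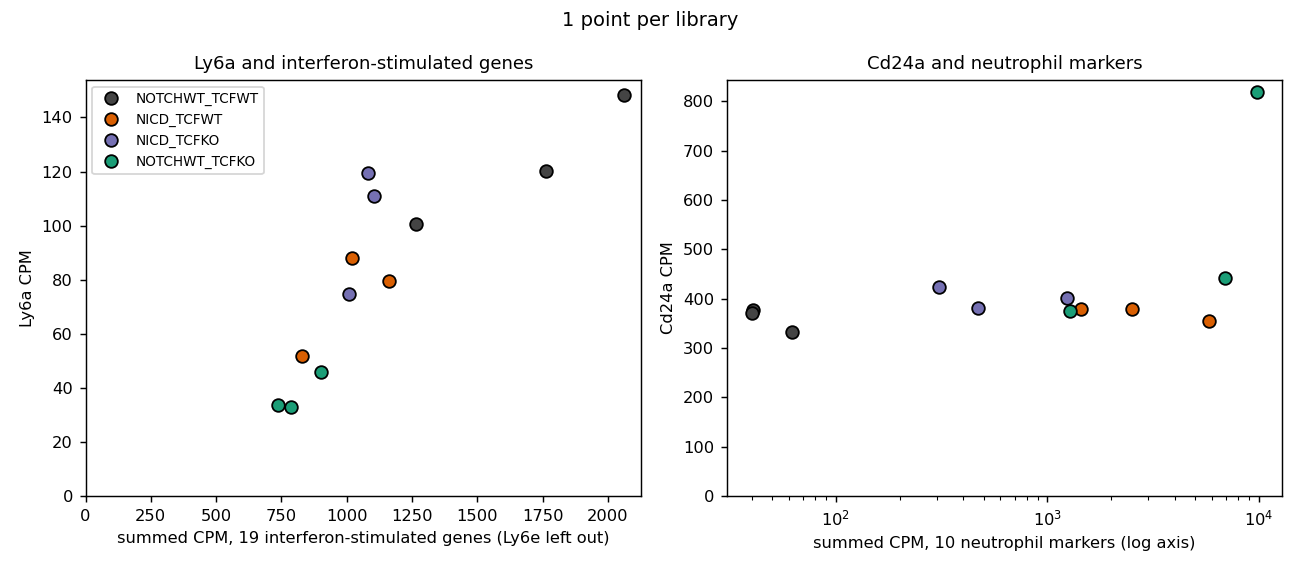
Left, Ly6a CPM against the summed CPM of 19 interferon-stimulated genes without Ly6e (both axes linear from 0); right, Cd24a CPM (linear) against the sum of 10 neutrophil markers (log axis). Each point is 1 library. Ly6a is lowest, at 33.0 and 33.6, where the interferon sum is lowest, and the Cd24a value of 819 belongs to the library with the neutrophil sum of 9807.

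Ptprc (ENSMUSG00000026395, mm10 chr1:138062861-138175708, minus strand) encodes CD45, the phosphatase of all nucleated blood cells, whose spliced forms include the B220 antigen; gene counts do not separate those forms. Ptprc measured 506, 604 and 460.3 CPM in NOTCHWT_TCFWT, 381, 393 and 435 in NOTCHWT_TCFKO, 376, 410.0 and 378 in NICD_TCFWT, and 497, 736 and 710.2 in NICD_TCFKO. The 6 libraries of NICD_TCFWT and NOTCHWT_TCFKO were all below the 6 others. Ptprc rose in NICD_TCFKO against NICD_TCFWT by 0.74 ± 0.14 on the log2 scale (1.67-fold, adjusted p = 0.00879) and against NOTCHWT_TCFKO by 0.68 ± 0.14 (adjusted p = 0.00915), the latter missing the threshold at 0.0508 with the fit restricted to the groups compared. The lower values in NICD_TCFWT (-0.43 ± 0.14, adjusted p = 0.0546) and NOTCHWT_TCFKO (-0.38 ± 0.14, adjusted p = 0.0851) against NOTCHWT_TCFWT did not pass. Only the NICD groups are labelled as also sorted on CD45.2, a form of this protein. Comparisons of Ptprc between NICD and NOTCHWT groups therefore cannot tell that gate from the labelled transgene.

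Several but not all genes that act on or with CD45 moved with it in NICD_TCFKO against NICD_TCFWT. Of 11 others on the list, 6 rose and 0 fell there (7.25% and 5.15% of all genes). In NICD_TCFWT against NOTCHWT_TCFWT 0 rose and 5 fell (10.6% and 9.75%), and in NOTCHWT_TCFKO against NOTCHWT_TCFWT 0 rose and 4 fell (10.8% and 10.5%). Ptprcap, the gene of a CD45-associated protein, went the other way. It averaged 119 CPM in NICD_TCFWT and 105 in NICD_TCFKO, against 83.5 in NOTCHWT_TCFWT. Hnrnpll, the splicing regulator that excludes variable exons of Ptprc, stood at 215 ± 20.2 CPM in NOTCHWT_TCFWT, 104 ± 1.49 in NICD_TCFWT, 158 ± 11.7 in NICD_TCFKO and 133 ± 23.4 in NOTCHWT_TCFKO (SD, n = 3). Lyn, a kinase shared with Kit signalling, rose by 0.45 ± 0.10 on the log2 scale in NICD_TCFKO against NICD_TCFWT (adjusted p = 0.0193). Of 9 other tested thymocyte staging antigens, 6 rose in NICD_TCFKO against NICD_TCFWT (7.25% of all genes did), Thy1 and Il2ra among them, and 0 fell. T cell markers summed to 134 to 439 CPM in NICD_TCFKO, 27.5 to 38.3 in NICD_TCFWT, 151 to 180 in NOTCHWT_TCFWT and 24.4 to 43.8 in NOTCHWT_TCFKO. Trbc2 averaged 173 CPM in NICD_TCFKO and 136 in NOTCHWT_TCFWT, while Trac averaged 0.0244 and 0.0389. In NICD_TCFKO against NICD_TCFWT 5 of 6 tested markers were higher, as were 7.25% of all genes. Among the markers, Cd3e missed the threshold with the NICD libraries paired by replicate number (adjusted p = 0.0616). The part of cells with these markers in Ptprc was not tested. Of the 19 genes of Kit signalling besides Kit, 3 rose and 2 fell in NICD_TCFKO against NICD_TCFWT (7.25% and 5.15% of all genes). In NICD_TCFWT against NOTCHWT_TCFWT 1 rose and 6 fell (10.6% and 9.75%). In NOTCHWT_TCFKO against NOTCHWT_TCFWT 2 rose and 6 fell (10.8% and 10.5%). Kit did not pass in any of the 3 comparisons.

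Across the comparisons, the number of the 9 transcripts called stood against the share of all tested genes called. In NICD_TCFWT against NOTCHWT_TCFWT, where 20.4% of all genes were called, 1 rose (10.6% of all genes did) and 1 fell (9.75%). In NOTCHWT_TCFKO against NOTCHWT_TCFWT (21.3%), 1 rose (10.8%) and 3 fell (10.5%). In NICD_TCFKO against NICD_TCFWT (12.4%), 1 rose (7.25%) and 3 fell (5.15%). In NICD_TCFKO against NOTCHWT_TCFKO (18.4%), 3 were higher (10.3%) and 1 lower (8.06%). Between NOTCHWT_TCFKO and NICD_TCFWT (2.87%), 0 were higher (1.34%) and 1, Cd48, lower (1.54%), with 4 at an unadjusted p under 0.05. Between NICD_TCFKO and NOTCHWT_TCFWT (6.3%; 4.01% higher and 2.3% lower), 0 were called by edgeR, DESeq2 or limma-voom, and Kit and Cd48 were at an unadjusted p under 0.05, both lower in NICD_TCFKO. The counts of 2 in the first of these comparisons and of 0 in the last are near the background. The shares over all genes were not matched for level. Except for Slamf1 (38.4%), each of the 9 had a mean CPM above that of 78.4% (Ly6a) to 99.6% (Cd34) of tested genes.

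The number of transcripts whose libraries did not overlap between the groups was counted as well. It was 7 of 9 in NICD_TCFWT against NOTCHWT_TCFWT, where 44.2% of all genes did not overlap, and 6 of 9 in NICD_TCFKO against NICD_TCFWT (37.9%). It was 3 in NOTCHWT_TCFKO against NOTCHWT_TCFWT (37%), 4 in NICD_TCFKO against NOTCHWT_TCFKO (32.8%), 2 in NICD_TCFKO against NOTCHWT_TCFWT (25.9%) and 3 in NOTCHWT_TCFKO against NICD_TCFWT (27.7%). All of these comparisons share libraries, so their values are not independent of each other.

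**Figure D4:**
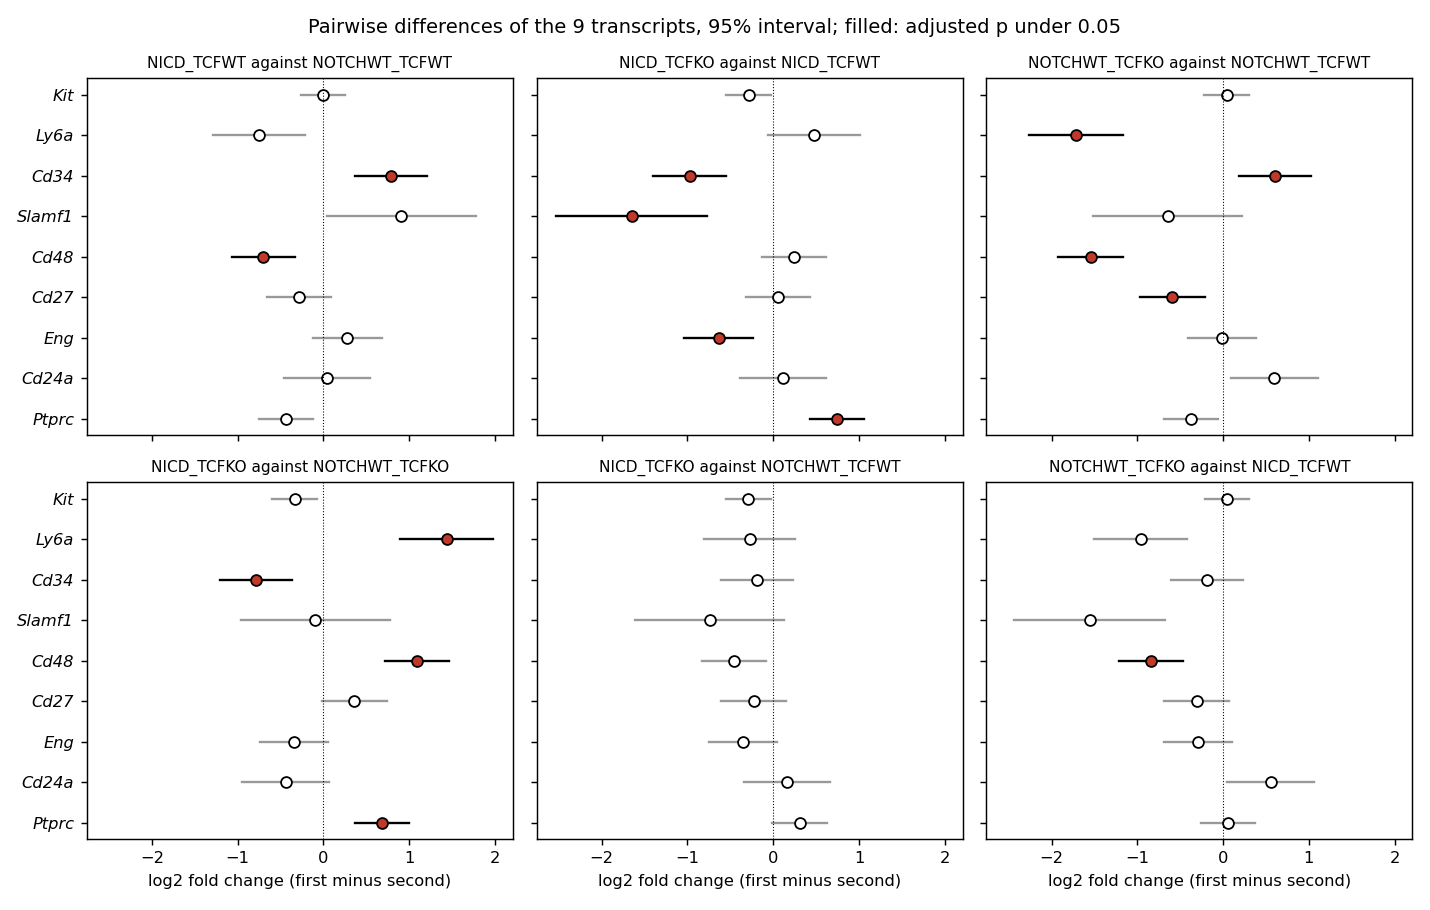
Log2 fold change (first group minus second, linear axis) of the 9 transcripts in the 6 pairwise comparisons; lines are 95% intervals and filled points have an adjusted p under 0.05. Filled points number 2, 4 and 4 in the upper row and 4, 0 and 1 in the lower row.

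The difference between the effect of labelled Tcf7 loss with and without labelled N1IC was tested as an interaction, NICD_TCFKO minus NICD_TCFWT less NOTCHWT_TCFKO minus NOTCHWT_TCFWT. Tcf7 itself averaged 1.28 CPM in NOTCHWT_TCFKO and 14.8 in NOTCHWT_TCFWT, but 603 in NICD_TCFKO and 5.50 in NICD_TCFWT. The differences that the interaction compares thus ran in opposite directions for Tcf7, against the labels of the NICD groups. Of the 9 transcripts 4 passed, where 27.4% of all genes did, 3 with a positive value (13.8% of all genes) and 1 with a negative one (13.5%). For Ly6a the labelled effect was -1.71 ± 0.25 without and 0.48 ± 0.24 with labelled N1IC on the log2 scale, an interaction of 2.19 ± 0.34 (adjusted p = 0.00124). For Cd48 it was -1.54 ± 0.17 without and 0.24 ± 0.17 with labelled N1IC, an interaction of 1.79 ± 0.24 (adjusted p = 0.000388). For Ptprc the interaction was 1.12 ± 0.20 (adjusted p = 0.00236), and for Cd34, at 0.60 without and -0.97 with labelled N1IC, it was -1.58 ± 0.27 (adjusted p = 0.00178). These 4 passed under all 21 alternative settings. Without library 2 of NOTCHWT_TCFKO they were 2.14, 1.77, 1.12 and -1.70, and without library 1 of that group 2.09, 1.84, 1.06 and -1.58. Kit, Slamf1, Cd27, Eng and Cd24a did not pass, with adjusted p from 0.0696 (Cd27) to 0.302 (Cd24a). With the NICD libraries paired by replicate number, Eng passed as well, at -0.67 (adjusted p = 0.0341).

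**Figure D5:**
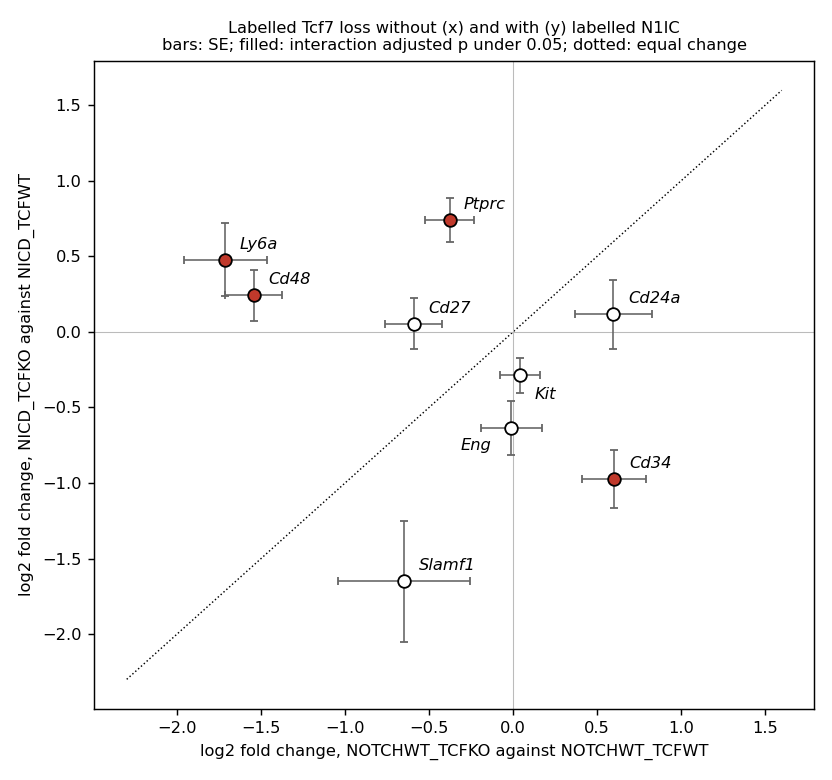
Log2 fold change of NICD_TCFKO against NICD_TCFWT (vertical) plotted against that of NOTCHWT_TCFKO against NOTCHWT_TCFWT (horizontal) for the 9 transcripts; bars are SE, the dotted line marks equal change and filled points passed the interaction test. Ly6a, Cd48 and Ptprc lie above the line and Cd34 below it, with interactions of 2.19, 1.79, 1.12 and -1.58.

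Ordered by group mean, Ly6a, Cd48 and Cd27 shared 1 order, from NOTCHWT_TCFWT through NICD_TCFKO and NICD_TCFWT to NOTCHWT_TCFKO. Slamf1 and Eng shared another, from NICD_TCFWT through NOTCHWT_TCFWT and NOTCHWT_TCFKO to NICD_TCFKO. Of 27 pairs of neighbouring groups in these orders, 2 differed at adjusted p under 0.05, Cd34 between NOTCHWT_TCFKO and NOTCHWT_TCFWT and Cd48 between NICD_TCFWT and NOTCHWT_TCFKO, so most orders are not resolved by the replicates. Over the 12 libraries, log2 CPM of Ly6a and Cd48 had r = 0.876, Slamf1 and Eng 0.812, and Cd48 and Cd27 0.792, while Cd27 and Cd24a had -0.836, Eng and Ptprc -0.786, and Cd34 and Ptprc -0.757. These describe libraries that fall into 4 groups and share their scaling.

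Genes with a pattern much like that of the other transcripts over the 12 libraries, of 10236 compared, included Skap2 for Cd34 (r = 0.980), Bex6 for Cd48 (0.953), Fam171a2 for Cd27 (0.957), Tmem40 for Eng (0.976), Msl1 for Ptprc (0.977) and Polr3gl for Kit (0.903). Camk1 and Slc35c2 for Cd34, Kdm1a for Cd48, and Kbtbd11 and Casp6 for Ptprc were others. The rest were Phf7 and Unc119 for Slamf1, Klk8 and Txlna for Cd27, Trip6 and Gabarapl1 for Eng, Ubac1 and C1galt1c1 for Cd24a, and Dapp1 and H1fx for Kit.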

How the data were processed

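Single-end reads of 75 nt from 12 libraries were aligned to mm10 and counted per gene, and the submitters' processing notes name HISAT2 and featureCounts 1.4.4, cutadapt 1.9.1 and bcl2fastq 2.17, limma and edgeR 3.28.0. The authors deposited raw counts per gene, which were the values tested here, and a table of log2 expression values, used as an alternative. Library totals of 30453271 to 43790674 counts set the counting precision. Of 39017 genes, 16024 passed edgeR's filterByExpr. edgeR 4.0.16 (R 4.3.3) fitted 1 mean per group over all 12 libraries, with TMM factors of 0.961 to 1.03 and robust quasi-likelihood F tests, and p-values were adjusted by Benjamini and Hochberg over all 16024 genes. The code was tested on simulated data. CPM are counts over the scaled library total. Symbols and coordinates come from GENCODE M21 (mm10) and promoter windows from RefSeq (GRCm38.p6). Same-numbered libraries of NICD_TCFWT and NICD_TCFKO deviated together from their group means (r of 0.1001 to 0.451, 3 pairs). An alternative fit therefore took their numbers as pairs, a reading of the data that no label states. The main fit used no pairs. In the other 5 pairings of groups at least 1 of 3 correlations was under 0.1, and the range over all 18 was -0.404 to 0.451. Replicates of a group differed by more than sampling noise. Alternatives were DESeq2 1.42.0, limma-voom (limma 3.58.1), RLE factors, other filters, the compared groups alone, a replicate block over all groups or the NICD libraries only, a term for high Xist, the deposited log2 table, and each library left out. Genes named besides the 9 are 39 genes listed by name, Tcf7 and Notch1 among them, and the 3 genes of at least 5 CPM with the highest Pearson's r per transcript of log2 CPM. Some of these are not reported here. Adgre1, C1qa, Elane, Mpo, Prtn3, Ctsg, S100a8, Trbc2, Trac, Vcam1, Pf4, Vwf, Emcn, Podxl2, Tnfrsf1a, Tnfrsf1b, Traf2, Traf3 and Gm16897 were named after their values or annotation had been seen. Members and lists were chosen with earlier results of these data known. All libraries carry 1 batch label.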

Additional observations from a re-analysis of the deposited data

Results flagged for a closer look

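In 4 of the 9 transcripts the effect of labelled Tcf7 loss differed between libraries with and without labelled N1IC, by the interaction term of edgeR's quasi-likelihood fit over 16024 genes. The interaction on the log2 scale was 2.19 (adjusted p = 0.00124) for Ly6a and 1.79 (adjusted p = 0.000388) for Cd48. It was 1.12 (adjusted p = 0.00236) for Ptprc and -1.58 (adjusted p = 0.00178) for Cd34. Among all genes 27.4% passed the same test. Of the labels that define it, Tcf7 goes against that of NICD_TCFKO and Notch1 against that of NICD_TCFWT.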

How the results depend on the processing

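Of 63 member comparisons, 19 were called and 10 of these held under every alternative; 0 called differences reversed. In NICD_TCFWT against NOTCHWT_TCFWT, 2 became 4 with DESeq2, with the compared groups alone and with the replicate block. In NOTCHWT_TCFKO against NOTCHWT_TCFWT, 4 became 2 with the compared groups alone and with the replicate block. In NOTCHWT_TCFKO against NICD_TCFWT, 1 became 3 with DESeq2 and 2 with limma-voom, the compared groups alone or the replicate block. In NICD_TCFKO against NOTCHWT_TCFWT, 0 became 1 with the Xist term. Neighbouring pairs called went from 2 to 1 with the Xist term and with the deposited log2 table. Counts over all genes went, with DESeq2, from 1986 to 3186 in NICD_TCFKO against NICD_TCFWT, from 1010 to 2025 in NICD_TCFKO against NOTCHWT_TCFWT and from 460 to 1655 in NOTCHWT_TCFKO against NICD_TCFWT. With the compared groups alone they went from 2942 to 1238 in NICD_TCFKO against NOTCHWT_TCFKO and from 1010 to 538 in NICD_TCFKO against NOTCHWT_TCFWT, which the Xist term moved to 1576, and the replicate block moved 460 to 291 in NOTCHWT_TCFKO against NICD_TCFWT. Fits of the compared groups alone use fewer libraries; for the others the cause was not tested. A replicate block of the NICD libraries only, chosen after seeing the data, left 4 members in NICD_TCFKO against NICD_TCFWT (1939 genes) and gave 5 in the interaction (4198 genes); among members it changed the call of Eng in the interaction and no other. Leaving out 1 library gave 1 to 4 members (2024 to 3644 genes) in NICD_TCFWT against NOTCHWT_TCFWT, 2 to 5 (917 to 2688) in NICD_TCFKO against NICD_TCFWT, 2 to 5 (2201 to 3847) in NOTCHWT_TCFKO against NOTCHWT_TCFWT, 3 to 6 (1610 to 3302) in NICD_TCFKO against NOTCHWT_TCFKO, 0 to 1 (368 to 1285) in NICD_TCFKO against NOTCHWT_TCFWT, 0 to 4 (161 to 2065) in NOTCHWT_TCFKO against NICD_TCFWT, 4 to 5 (3545 to 4660) in the interaction and 0 to 5 neighbouring pairs. With 3 libraries a group, Slamf1 at 126 to 858 counts is the least precise.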
